A study of Mus musculus with 4 samples.

Results

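The clustered histone genes are the 68 gene symbols, of 24411 in the deposited tables, that start with Hist1h, Hist2h, Hist3h or Hist4. By type they are 6 genes for the linker histone H1 and, for the core histones, 18 genes for H2A, 19 for H2B, 12 for H3 and 13 for H4. By cluster, 54 are Hist1 genes, 10 are Hist2 genes, 3 are Hist3 genes and 1 is the Hist4 gene. RNA sequencing covered B220+ cells, sorted by the B lineage surface marker B220 from bone marrow of tibia and femur. There are 2 libraries from mice whose genotype is given as Arid5b overexpression (labelled libraries 1 and 2) and 2 from wildtype mice. Arid5b belongs to the ARID family of proteins, which bind AT-rich DNA. The labels name no construct, promoter, Cre, strain, age, sex or batch, and do not say whether each library is 1 mouse, so p-values measure only the spread between these samples. They also do not say whether the RNA was selected for poly(A) tails.

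Replication-dependent histone genes supply the proteins that package newly copied DNA, and their mRNA accumulates in S phase and is degraded when DNA synthesis stops. Most of these mRNAs have no poly(A) tail and end in a short stem-loop, which is bound by the stem-loop binding protein Slbp and trimmed with the help of the U7 small nuclear ribonucleoprotein. In bone marrow, B cell precursors divide in bursts between stages in which they rest, and B220 marks dividing and resting stages alike.

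The targeted gene was raised in 1 of the libraries labelled for it. Arid5b had 58127 reads in labelled library 1 and 2770 in labelled library 2, against 2993 and 2465 in wildtype libraries 1 and 2. The difference from wildtype was 4.41 on the deposited log2 scale in labelled library 1 (SE 0.126, limma adjusted p = 1.28e-11) and -0.22 in labelled library 2 (SE 0.145, limma adjusted p = 0.493). The libraries held 14196665 to 20356404 reads assigned to genes, and the ribosomal RNA precursor Rn45s took 25.7% to 30.5% of them. The 6 B cell markers were read in every library, with summed levels of 3079 and 4732 reads scaled to a common library total (CPM) in labelled libraries 1 and 2, against 4402 and 4887 CPM in wildtype. Within this list labelled library 1 differed. Ptprc, whose protein carries the B220 epitope used for sorting, had 372 and 1880 CPM in labelled libraries 1 and 2, against 1772 and 1958 CPM in wildtype, and fell in labelled library 1 (-2.47, SE 0.116, limma adjusted p = 1.16e-09). Cd79a (-1.31) also fell there, while Cd79b (1.10), Pax5 (0.96) and Ebf1 (0.50) rose, and none of these 5 genes was called in labelled library 2. The 10 neutrophil markers summed to 141 and 1613 CPM in labelled libraries 1 and 2, against 6.20 and 109 CPM in wildtype, and 9 of 9 tested were higher in labelled library 2. Summed levels in labelled libraries 1 and 2 were 9.88 and 19.5 CPM for 6 monocyte markers, against 26.6 and 17.4 CPM in wildtype, and 2.62 and 22.5 CPM for 7 T or NK cell markers, against 47.5 and 49.1 CPM. They were 201 and 581 CPM for 5 plasmacytoid dendritic cell markers, against 704 and 591 CPM in wildtype, and 5.50 and 4.96 CPM for 8 erythroid markers, against 5.56 and 5.14 CPM. The globin genes Hbb-bs, Hbb-bt, Hba-a1 and Hba-a2 were at 0 in all 4 libraries. The part of these cells in the histone values below was not tested, and in bulk RNA fewer cells of a type and less RNA per cell cannot be told apart.

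The sequence that sets these mRNAs apart was searched in the GENCODE transcript models (GRCm38), with the pattern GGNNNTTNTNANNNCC over 16 bases on the sense strand. It was found in 46 of the 68 members, in every case with fully paired stems, 21 to 58 bases after the stop codon (median 31). The form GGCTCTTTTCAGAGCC was in 26 members, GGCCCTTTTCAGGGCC in 7 and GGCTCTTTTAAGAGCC in 6. The lines below show these forms in genes whose levels are given later, 5′ to 3′ as DNA, with the stem-loop in capitals. They are the H1 gene with the smallest rise in labelled library 1, an H2B gene, an H3 gene with a large rise, the H4 gene with most reads, and the only gene of Hist4.
Hist1h1c: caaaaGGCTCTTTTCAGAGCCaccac
Hist1h2bg: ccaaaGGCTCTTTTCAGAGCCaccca
Hist1h3c: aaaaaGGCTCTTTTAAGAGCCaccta
Hist1h4d: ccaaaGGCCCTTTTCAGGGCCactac
Hist4h4: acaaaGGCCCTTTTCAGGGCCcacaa

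Of the 22 members without a match, 18 have models that run at most 48 bases past the stop codon and end before the place of the farthest match, so the search says little about them; Hist1h1a is one. The other 4, whose models run at least 742 bases past the stop, are Hist1h2bc, Hist1h2bq, Hist1h2br and Hist2h2be.

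The promoters were read from RefSeq (GRCm38.p6), from 250 bases before to 50 bases after the start, for the 62 members that have an entry (63 windows). They were searched on both strands for TATAAA, for CCAAT, for ATTTGCAT (the octamer bound by POU factors), for AAACACA (the H1 box) and for GGTCCG (the core of the H4 element bound by Hinfp). CCAAT was in all 6 H1, all 18 H2A, all 17 H2B and all 10 H3 windows, and in 3 of 12 H4 windows, against 37.4% of all 32851 promoters. The octamer was in 7 of 18 H2A and 7 of 17 H2B windows and in 0 of the H1, H3 and H4 windows, against 1.74% of all promoters. The H1 box was in 5 of 6 H1 windows, the exception being Hist1h1a, against 7.18% of all promoters, and also in 2 H2A and 2 H2B windows. GGTCCG was in 11 of 12 H4 windows, against 8.25% of all promoters, and TATAAA in 35 of the 63 windows, against 13.6%. Below are 150 bases, from 130 before to 20 after the start, of 3 H1 genes, 1 H2B gene and 2 H4 genes that differ in how far they moved; capitals mark these motifs on either strand (CCAAT reads ATTGG on the other).
Hist1h1a, chr13:23763538-23763687, + strand: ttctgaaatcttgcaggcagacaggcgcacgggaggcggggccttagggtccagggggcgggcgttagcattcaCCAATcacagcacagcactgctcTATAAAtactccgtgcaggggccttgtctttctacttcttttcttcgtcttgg
Hist1h1b, chr13:21780606-21780755, - strand: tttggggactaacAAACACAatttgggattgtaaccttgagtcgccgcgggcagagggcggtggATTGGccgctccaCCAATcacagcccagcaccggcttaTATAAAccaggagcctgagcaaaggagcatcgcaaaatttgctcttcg
Hist1h1c, chr13:23738677-23738826, + strand: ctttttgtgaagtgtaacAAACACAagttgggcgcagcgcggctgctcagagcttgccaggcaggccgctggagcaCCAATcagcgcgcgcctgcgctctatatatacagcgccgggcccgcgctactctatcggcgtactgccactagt
Hist1h2bm, chr13:21721914-21722063, + strand: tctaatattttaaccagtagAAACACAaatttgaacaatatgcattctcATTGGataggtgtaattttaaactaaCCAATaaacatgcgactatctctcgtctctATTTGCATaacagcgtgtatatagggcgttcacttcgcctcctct
Hist1h4d, chr13:23581438-23581587, + strand: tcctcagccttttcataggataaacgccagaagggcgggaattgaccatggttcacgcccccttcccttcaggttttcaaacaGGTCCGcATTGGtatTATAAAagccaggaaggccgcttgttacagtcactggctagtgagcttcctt
Hist4h4, chr6:136804412-136804561, - strand: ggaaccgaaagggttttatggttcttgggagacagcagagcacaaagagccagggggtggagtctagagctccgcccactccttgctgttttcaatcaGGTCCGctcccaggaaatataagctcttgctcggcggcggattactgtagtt

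These genes are so alike that the counting limits what can be said of single copies. Of the 67 protein-coding members, 15 share every 50-base window of their coding sequence with another gene's transcript, 5 share none (Hist1h1a, Hist1h1b, Hist1h1t, Hist2h2be and Hist4h4), and the median shared portion was 76.0%. How the authors treated reads that match several genes is not given in the sources used here. No library held a read of 9 members. Of these, Hist1h2ao, Hist1h2ap, Hist1h2bq, Hist1h2br, Hist1h4m, Hist2h2aa1, Hist2h3c1 and Hist2h3c2 share every such window, and Hist1h2aa, a testis gene, does not. Hist1h2be and Hist1h1e also overlap in exons in GENCODE, so reads of the one can lie in the other. Levels of single H2A, H2B, H3 and H4 copies are therefore uncertain, and sums over a type are given first.

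Histone genes took a several times larger portion of the reads in labelled library 1 than in the other libraries. The 68 genes summed to 38103 reads in labelled library 1 and 11345 in labelled library 2, against 11167 and 8337 in wildtype libraries 1 and 2. As portions of all reads assigned to genes these are 0.249% (exact 95% binomial interval 0.247% to 0.252%) and 0.0557% (0.0547% to 0.0568%), against 0.0554% (0.0544% to 0.0565%) and 0.0587% (0.0575% to 0.0600%). These intervals cover counting error only. The values of labelled library 2 lay within the wildtype pair, and that of labelled library 1 lay above all 3 others. In normalised reads, labelled library 1 was 3.95 times the wildtype mean and labelled library 2 was 0.986 times. Over both groups, the log2 of the summed normalised reads averaged 15.45 ± 1.41 in the labelled libraries and 14.47 ± 0.0358 in wildtype (SD, n = 2 each). The difference of 0.98 was smaller than the spread between the labelled libraries (two-sided exact permutation p = 0.667, where the smallest value that 2 libraries against 2 allow is 0.333). It rests on labelled library 1, since without it the difference is -0.0195.

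In summed reads, each core histone type differed more from wildtype than H1 did in labelled library 1. H1, which binds the DNA between nucleosomes, had 18628 reads in labelled library 1 and 8085 in labelled library 2, against 7653 and 6180 in wildtype, or 2.70 and 0.985 times the wildtype mean in normalised reads. H2A and H2B, which pair with each other in the nucleosome, had 2652 and 10308 reads in labelled library 1 and 325 and 1755 in labelled library 2, against 409 and 1860 in wildtype library 1 and 294 and 1047 in wildtype library 2. H2A was thus 7.64 times the wildtype mean in labelled library 1 and 0.786 times in labelled library 2, and H2B was 7.33 and 1.05 times. H3, which forms the centre of the nucleosome with H4, had 1309 and 346 reads in labelled libraries 1 and 2, against 400 and 270 in wildtype, or 3.98 and 0.883 times the wildtype mean. H4 had 5206 and 834 reads in labelled libraries 1 and 2, against 845 and 546 in wildtype, or 7.65 and 1.03 times. All 5 types were highest in labelled library 1. H1 made up 48.9% of the histone reads in labelled library 1 and 71.3% in labelled library 2, against 68.5% and 74.1% in wildtype. The sums of types were compared without a test, and single genes weigh heavily in some of them: in labelled library 1 Hist1h1e gave 50.4% of the H1 reads and Hist1h4d gave 84.8% of the H4 reads. Gene by gene, medians on the deposited log2 scale gave another order in labelled library 1. The median difference was 1.72 over the tested H1 genes, against 1.33 for H3 and 1.16 for H4. This order need not hold in normalised reads, because the deposited scale compresses differences at low levels, where most H3 and H4 genes lie. For example, Hist1h1d differed by 1.72 and Hist1h4f by 1.15 on it. In normalised reads they were 3.40 and 3.79 times the wildtype mean. Whether H1 genes moved more than H3 or H4 genes is therefore not decided by these medians.

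**Figure D1:**
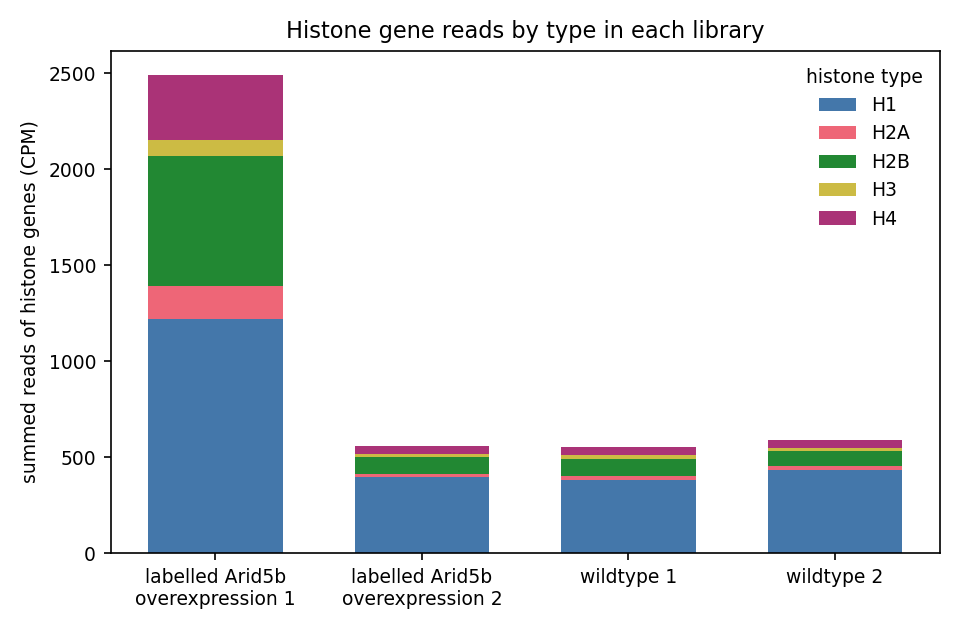
Summed reads of the 68 histone genes in each library, in CPM, stacked by histone type. Labelled library 1 reaches 2493 CPM and labelled library 2 reaches 557 CPM, against 554 and 587 CPM in wildtype libraries 1 and 2.

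Of the 68 members, 59 had reads, and 45 passed the filter on low reads, which asks for 10 reads, scaled to the median depth, in 2 or more libraries. Labelled library 1 alone is not enough to pass it, but it can be 1 of the 2. Hist1h2ae, Hist1h2an, Hist1h2bp and Hist1h4n passed only with its help, so their entry leans on the library in which they are highest. In the comparison of labelled library 1 with wildtype, 38 of the 45 rose and 0 fell (limma, adjusted p under 0.05 over 12617 genes). Over all genes tested, 26.8% rose and 34.4% fell. A rise of at least 1 on the log2 scale was called in 35 of the 45 members and in 18% of all genes. The median difference was 1.81 over the 45 members and -0.15 over all genes tested on the deposited log2 scale, so a change of 0 on this scale lies slightly above the middle of all genes. By type, 5 of 5 tested H1 genes, 8 of 9 H2A genes, 12 of 14 H2B genes, 6 of 7 H3 genes and 7 of 10 H4 genes rose. Their median differences were 1.72 for H1, 1.84 for H2A, 2.76 for H2B, 1.33 for H3 and 1.16 for H4. The spread in this fit is that of the wildtype pair, moderated by limma's prior over genes, and the fit assumes that the lone labelled library varies like them. Without any filter on low reads 13 of 59 members were called, among 8.43% higher over all 17905 genes.

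**Figure D2:**
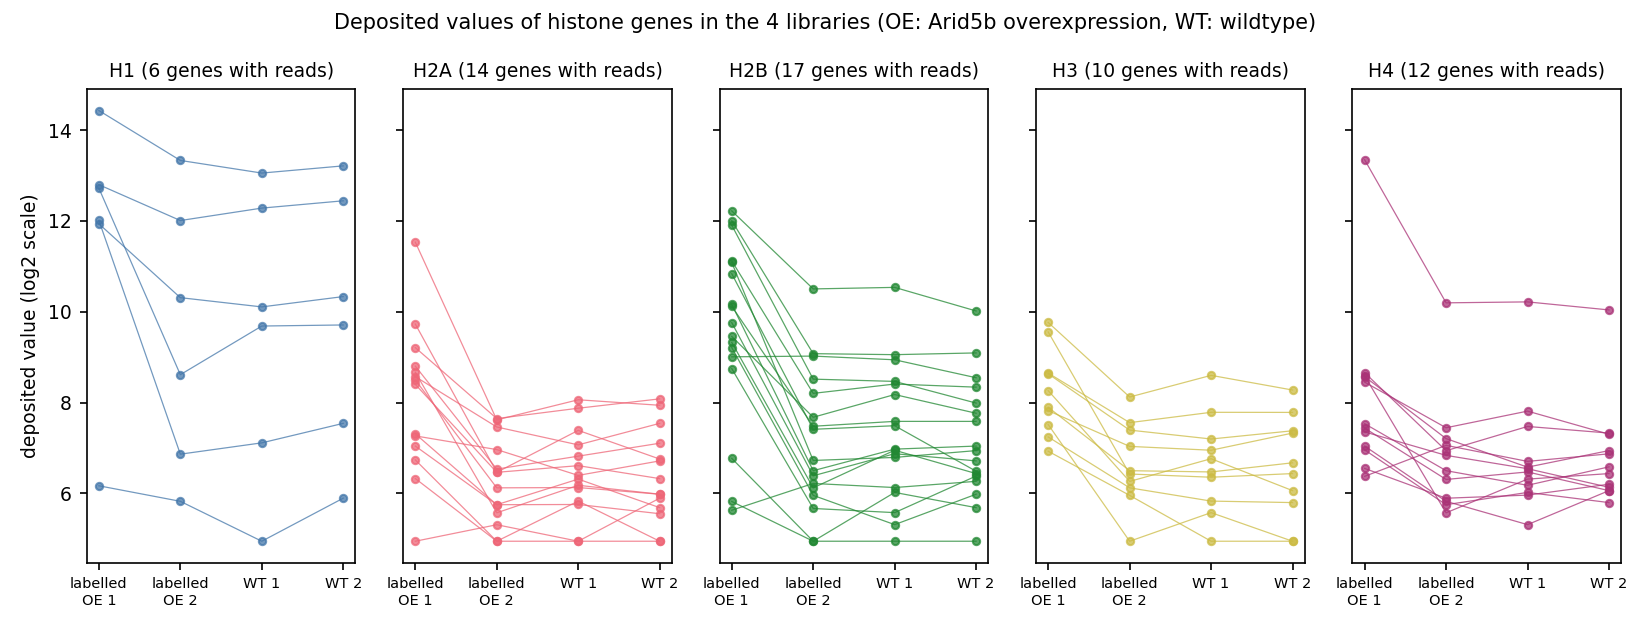
Deposited log2 values of the 59 histone genes with reads, 1 line per gene and 1 panel per type, in labelled libraries 1 and 2 and wildtype libraries 1 and 2. In most genes labelled library 1 is the highest point and the other 3 libraries lie close together.

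The H1 genes ran from the smallest to the largest rise of all members called. Hist1h1a (chr13:23763666-23764406, GRCm38), an H1 gene whose coding sequence is shared with no other gene, had 113 and 1.57 CPM in labelled libraries 1 and 2, against 2.08 and 3.31 CPM in wildtype. Its normalised level was 38.0 times the wildtype mean in labelled library 1, the largest difference among the 45 members (4.68, SE 0.295, limma adjusted p = 1.88e-08). Labelled library 2 lay below both wildtype libraries, by less than the test can call (-0.46, SE 0.401, limma adjusted p = 0.616). Hist1h1b (chr13:21779883-21780625), also unshared, had 186 and 8.30 CPM in labelled libraries 1 and 2, against 19.0 and 19.8 CPM in wildtype. It rose in labelled library 1 (3.02, SE 0.180, limma adjusted p = 1.15e-08). It is also the only member called in labelled library 2, where it fell (-1.08, SE 0.244, limma adjusted p = 0.0483).

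The other 3 tested H1 genes moved less. Hist1h1e (chr13:23620629-23622558) had 614 and 256 CPM in labelled libraries 1 and 2, against 210 and 240 CPM in wildtype (1.30 in labelled library 1, SE 0.128, limma adjusted p = 1.56e-06). Hist1h1d (chr13:23553262-23560686) had 108 and 30.2 CPM, against 26.0 and 31.3 CPM in wildtype (1.72, SE 0.185, limma adjusted p = 3.61e-06). Hist1h1c (chr13:23738808-23740367) had 197 and 101 CPM, against 123 and 140 CPM in wildtype, and rose by 0.44 in labelled library 1 (SE 0.14, limma adjusted p = 0.0162). In all 3 genes labelled library 1 was highest, and in Hist1h1c labelled library 2 was lowest, though its difference was not called (-0.35, limma adjusted p = 0.266). Hist1h1t, the testis gene of the cluster, had 10 and 6 reads in labelled libraries 1 and 2, against 0 and 5 in wildtype, and was not tested.

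Per length, the order of the genes also differed between libraries. The lengths are RefSeq spans, and the annotation used for counting is not given in the sources used here. GENCODE exons are longer for some genes, such as Hist1h4d (1138 against 402 bases) and Hist1h1e (1930 against 782 bases). Ranks within a library can therefore change with the lengths used. Over the genes with a RefSeq span under 1 kb, the level of Hist1h1e was 785 CPM per kb in labelled library 1 and 327 in labelled library 2, against 269 and 307 in wildtype. Hist1h4d came second in labelled library 1, with a level of 718 CPM per kb there and 69.0 in labelled library 2, against 70.0 and 62.9 in wildtype. In the other 3 libraries Hist1h1c came second, with 140 CPM per kb in labelled library 2 and 169 and 194 in wildtype, against its 272 in labelled library 1. Hist1h1a and Hist1h1b, with 152 and 235 CPM per kb in labelled library 1, had 2.11 and 10.5 in labelled library 2 and at most 4.44 and 24.9 in wildtype.

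Among H2A genes, Hist1h2ak had most reads over the 4 libraries together, through its 1236 reads in labelled library 1; Hist3h2a had slightly more than it in labelled library 2 and in wildtype library 2. It had 80.9 and 3.49 CPM in labelled libraries 1 and 2, against 5.21 and 4.79 CPM in wildtype (3.53 in labelled library 1, SE 0.259, limma adjusted p = 8.51e-08). Hist1h2ac had 22.0 and 0.933 CPM, against 2.78 and 1.41 CPM in wildtype (2.66, SE 0.372, limma adjusted p = 4.18e-05). Hist3h2a and Hist2h2ac, H2A genes of the smaller clusters, rose less. Hist3h2a had 14.9 and 3.59 CPM in labelled libraries 1 and 2, against 4.42 and 5.42 CPM in wildtype (1.23, SE 0.315, limma adjusted p = 0.00428). Hist2h2ac had 8.96 and 3.0 CPM, against 1.99 and 3.31 CPM in wildtype (1.27, SE 0.373, limma adjusted p = 0.00999). Of the other tested H2A genes, Hist2h2ab was the one not called (0.71, SE 0.415, limma adjusted p = 0.152).

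The H2B genes had the largest median difference of the 5 types. Hist1h2be, which overlaps Hist1h1e, had 131 and 34.7 CPM in labelled libraries 1 and 2, against 35.5 and 24.9 CPM in wildtype (1.94, SE 0.212, limma adjusted p = 4.07e-06). Hist1h2bc had 113 and 12.0 CPM, against 11.8 and 12.4 CPM in wildtype (2.93, SE 0.207, limma adjusted p = 6.14e-08). Labelled library 2 lay between the wildtype libraries for both genes. Hist1h2bl had 105 and 7.66 CPM, against 7.35 and 5.0 CPM in wildtype (3.68, SE 0.265, limma adjusted p = 7.35e-08). Hist1h2bg had 60.4 and 5.89 CPM, against 7.0 and 6.76 CPM in wildtype (2.75, SE 0.25, limma adjusted p = 7.62e-07). Hist1h2bm had the largest H2B difference (4.22, SE 0.321), with 58.9 and 1.33 CPM in labelled libraries 1 and 2, against 1.44 and 1.76 CPM in wildtype. Its promoter holds the octamer. In labelled library 1 the median difference was 2.75 over the 5 tested H2B genes with the octamer and 2.77 over the 7 without. Hist1h2bm was named after its values were seen, as were Hist1h1a and the genes not called.

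Hist2h2be was the exception among H2B genes with many reads. It had 194 and 234 reads in labelled libraries 1 and 2, against 217 and 114 in wildtype, or 12.7 and 11.5 CPM, against 10.8 and 8.03 CPM. Its difference in labelled library 1 was 0.26 (SE 0.295, limma adjusted p = 0.454), while that of Hist2h2ac, whose start lies 239 bases away on the other strand, was 1.27. The transcript model of Hist2h2be runs 2192 bases past the stop codon and holds no stem-loop match. Hist1h2bc, with 742 such bases and no match, differed by 2.93. Over the 31 tested members with a match, the median difference in labelled library 1 was 1.33 (-0.57 to 4.22). Over the 12 tested members whose models end before the place of the farthest match, it was 2.40 (0.71 to 4.68). Whether a match goes with the size of the change was not tested. Hist3h2ba had 3 and 13 reads in labelled libraries 1 and 2, against 11 and 10 in wildtype, and was not called (-0.57, limma adjusted p = 0.280).

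The H3 genes had few reads for any single gene. Hist1h3e had 22.6 and 5.50 CPM in labelled libraries 1 and 2, against 8.19 and 6.41 CPM in wildtype (1.33, SE 0.287, limma adjusted p = 0.00138). Hist1h3d had 9.55 and 3.29 CPM, against 4.07 and 4.16 CPM in wildtype (0.86, SE 0.333, limma adjusted p = 0.0374). Hist1h3a had 9.42 and 2.80 CPM, against 2.28 and 2.82 CPM in wildtype (1.34, SE 0.358, limma adjusted p = 0.00553). In all 3, only labelled library 1 stood apart from the rest. The call of Hist1h3d was lost with a filter of a mean of 10 reads. Hist1h3c moved most, with 19.3 and 0.884 CPM in labelled libraries 1 and 2, against 0.794 and 0.916 CPM in wildtype (3.16, SE 0.373, limma adjusted p = 8.77e-06). Hist1h3f was not called (0.68, SE 0.388, limma adjusted p = 0.142).

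Hist1h4d made up most H4 reads in every library. Its portion was 84.8% in labelled library 1 and 67.7% in labelled library 2, against 67.1% and 65.8% in wildtype. Its level was 289 and 27.8 CPM in labelled libraries 1 and 2, against 28.1 and 25.3 CPM in wildtype (3.22, SE 0.169, limma adjusted p = 3.28e-09, the smallest among the members). The other H4 genes with many reads rose less. Hist2h4 had 9.62 and 1.72 CPM, against 3.03 and 2.68 CPM in wildtype (1.26, SE 0.352, limma adjusted p = 0.00740). Hist1h4a had 8.96 and 2.31 CPM, against 1.09 and 1.76 CPM in wildtype (1.81, SE 0.387, limma adjusted p = 0.00126). For Hist1h4a both labelled libraries lay above wildtype. Hist1h4c had 8.11 and 2.95 CPM, against 4.17 and 2.61 CPM in wildtype, at the edge of the threshold (0.89, SE 0.368). Its call was lost on log2 of normalised reads plus 0.5, with a filter of a mean of 10 reads and without a filter on low reads.

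Hist4h4, the replication-dependent H4 gene outside the larger clusters, went the other way in value. It had 14 and 40 reads in labelled libraries 1 and 2, against 26 and 23 in wildtype, which was not called (-0.41 in labelled library 1, SE 0.417, limma adjusted p = 0.404). Hist1h4i had 46 and 31 reads, against 21 and 8 in wildtype, and lay just outside the threshold (1.02, SE 0.425, limma adjusted p = 0.0524). It was called under 4 of the alternatives tried. Hist1h4n was not called either (0.47, SE 0.437, limma adjusted p = 0.366).

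**Figure D3:**
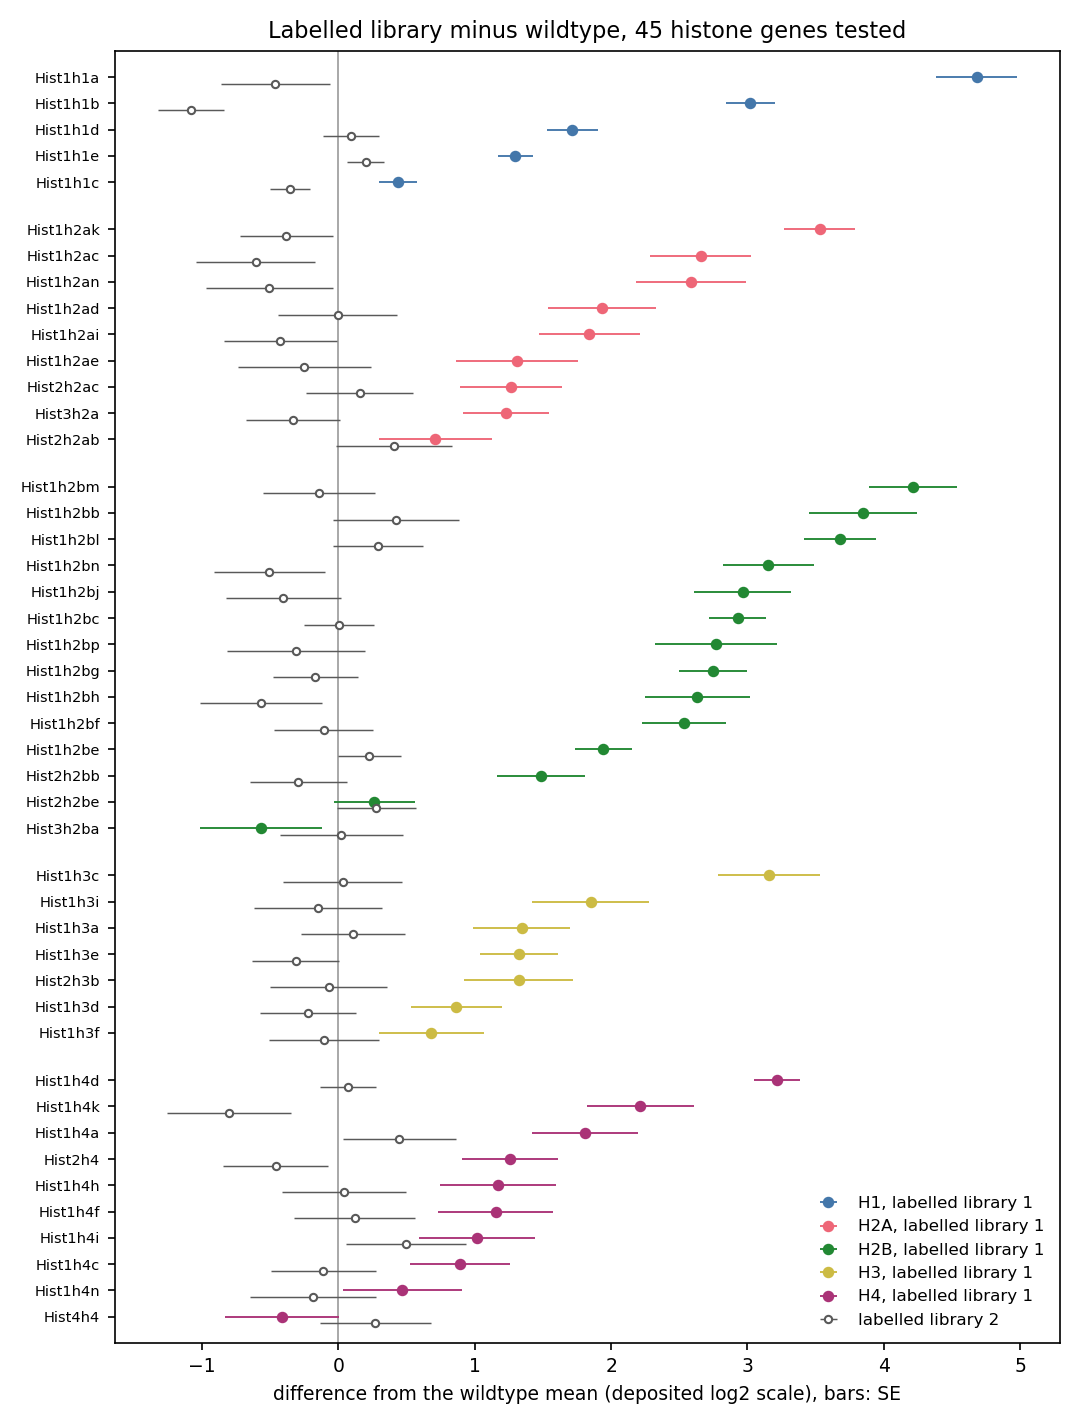
Difference from the wildtype mean on the deposited log2 scale for the 45 tested histone genes, with SE bars, grouped by type and sorted by labelled library 1 (filled points). Open points are labelled library 2, which lie between -1.08 and 0.50, while those of labelled library 1 run from -0.57 to 4.68.

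Of the 14 members with reads that were not tested, 13 had most normalised reads in labelled library 1. The filter asks for 2 libraries, so it leaves genes that are high in only 1 library among those not tested. The share over all genes not tested was not computed, so this count cannot be set against it. Hist1h2bk had 227 and 8 reads in labelled libraries 1 and 2, against 1 and 6 in wildtype. Hist1h2ab had 129 and 11 reads, against 11 and 6 in wildtype. Hist1h3g had 54 and 0 reads, against 3 and 0 in wildtype. These 3 stood out only in labelled library 1. Hist1h3b, with 29 and 8 reads in the labelled libraries, was at 0 in both wildtype libraries, and its level in labelled library 1 was at least 19.6-fold higher, against a floor of 3 reads over the wildtype pair together.

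The clusters differed in size of change. The Hist1 genes lie on chromosome 13 in a part of 23 genes (chr13:21715763-22043676) and a part of 31 genes (chr13:23531050-23934851), 1487 kb apart. The lower part had 8528 and 573 reads in labelled libraries 1 and 2, against 863 and 601 in wildtype, or 11.8 and 0.667 times the wildtype mean in normalised reads. The upper part, which holds the abundant genes Hist1h1e, Hist1h1c and Hist1h4d, had 28436 and 10184 reads, against 9699 and 7329 in wildtype, or 3.37 and 1.01 times. Labelled library 1 was above all others in both parts, and labelled library 2 was below wildtype in the lower part. Hist1h1b weighs heavily in that lower sum, with 169 reads in labelled library 2, against 383 and 281 in wildtype. Of the 13 tested genes there, 11 had a negative and 2 a positive difference in labelled library 2 (median -0.38). Counting genes gives a smaller contrast between the parts. In labelled library 1, 11 of 13 tested genes rose in the lower part, with a median difference of 2.77, and 22 of 23 rose in the upper part, with a median of 1.81. The parts were not tested against each other.

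The smaller clusters moved less. Hist2 (chr3:96219865-96270132) had 871 and 462 reads in labelled libraries 1 and 2, against 470 and 294 in wildtype, which is 2.34 and 1.04 times the wildtype mean. In labelled library 1, 4 of its 6 tested genes rose. Hist3 (chr11:58948920-58956830) had 254 and 86 reads, against 109 and 90 in wildtype, or 2.56 and 0.727 times, and 1 of its 2 tested genes rose. Hist1 held 97.0% of all histone reads in labelled library 1 and 94.8% in labelled library 2, against 94.6% and 95.1% in wildtype. The sums of the smaller clusters therefore weigh little in the totals.

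**Figure D4:**
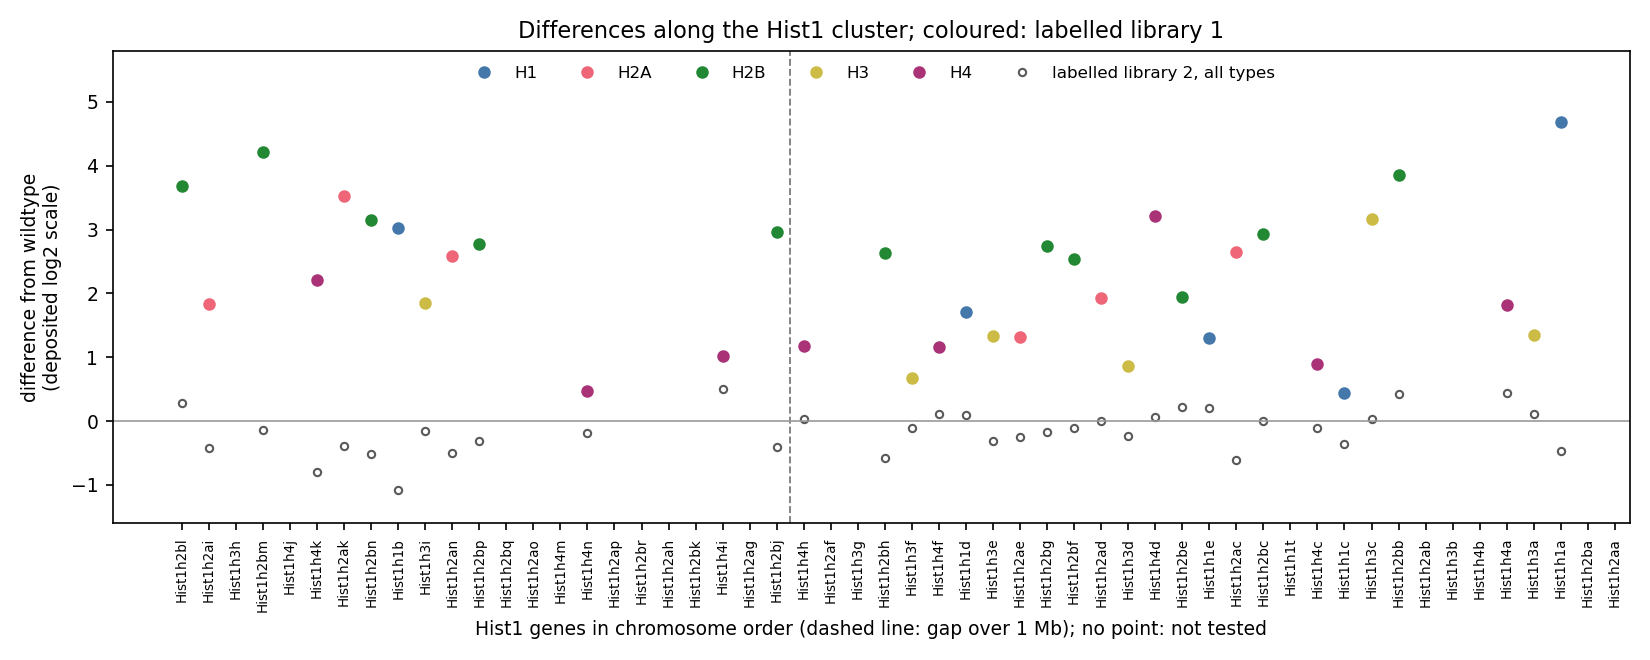
Differences from wildtype on the deposited log2 scale for the Hist1 genes in their order along chromosome 13, coloured by type for labelled library 1 and open for labelled library 2. The dashed line marks the gap of 1487 kb, and positions without a point are members that were not tested.

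H2A and H2B genes often start back to back from a shared promoter region. There were 12 such pairs among the members, with 176 to 306 bases between the starts, and both genes were tested in 7. In each of the 7 pairs both genes had a positive difference in labelled library 1, the smallest being that of Hist2h2be (0.26), the partner of Hist2h2ac. Over all 12617 genes tested, 5717 had a positive difference there. On the deposited log2 scale the H2B gene had the larger difference in 5 of the 7. For example, Hist1h2bl differed by 3.68 and its partner Hist1h2ai by 1.84. The count depends on the scale. Hist1h2bc and Hist1h2ac differed by 2.93 and 2.66 on it, but were 8.44 and 9.45 times the wildtype mean in normalised reads. Among the paired genes, Hist1h2ae, Hist1h2an and Hist1h2bp passed the filter only with the help of labelled library 1. Whether H2B genes moved more than their partners was not tested. Hist1h2ak and Hist1h2bn, 296 bases apart, differed by 3.53 and 3.15.

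In the comparison of labelled library 2 with wildtype, 0 of the 45 members rose and 1 fell, Hist1h1b. Over all genes tested, 0.769% rose and 0.888% fell. The median difference was -0.11 over the members and 0.01 over all genes tested, with 18 members above 0 and 27 below. The fall of Hist1h1b was near the threshold and was lost under 6 of 9 alternatives. In this library the proliferation marker Mki67, a nuclear protein of dividing cells, was raised, with 2185 reads, against 1137 and 906 in wildtype (0.84, SE 0.161, limma adjusted p = 0.0246). This call too was lost under 5 of 9 alternatives, with adjusted p-values up to 0.39 by limma. In labelled library 1 it had 25752 reads (4.63, SE 0.135, limma adjusted p = 1.55e-11). Neutrophil markers were also highest in labelled library 2, as given above.

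In the comparison of both groups, 0 of the 45 members were called by limma, as were 0% of all genes, and 0 members had an unadjusted p under 0.05. With limma-voom, run on reads recovered from the values, 0 were called as well. In the limma fit on the deposited values, the smallest adjusted p among the members was 0.726. Of the members, 43 had a positive difference in this fit, with a median of 0.76. Over all 12617 genes tested, 5753 had one, with a median of -0.08. On the deposited values, in 7 members (Hist1h1e, Hist1h2bl, Hist1h3a, Hist1h4a, Hist1h4i, Hist2h2ab and Hist2h2be) both labelled libraries lay above both wildtype libraries, and in 0 members both lay below, against 19.6% and 23% of all genes tested. Without labelled library 1 the count of calls is 1, and without labelled library 2 it is 38.

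Other histone genes and the factors that act on histone mRNA were set beside the members. Among genes of histone variants, which lie outside the clusters and are mostly not tied to S phase, 6 of 9 tested rose in labelled library 1 and 2 fell, with a median difference of 1.00. Over all genes tested in that library, 26.8% rose and 34.4% fell, and the counts of all 4 lists are to be read against these. H2afx, the H2A form that is phosphorylated at DNA breaks and that also makes a stem-loop mRNA in S phase, had 3252 and 461 reads in labelled libraries 1 and 2, against 334 and 211 in wildtype (3.49, SE 0.189, limma adjusted p = 4.49e-09). H2afz, the gene of the variant H2A.Z, had 12871 and 2269 reads, against 2729 and 1498 in wildtype (2.65, SE 0.157, limma adjusted p = 1.06e-08). H2afv, which encodes a second form of this variant, rose by 2.26 (SE 0.219, limma adjusted p = 1.39e-06). H2afy, the gene of macroH2A, rose by 1.55 (SE 0.152, limma adjusted p = 1.56e-06). H2afj fell (-0.85, SE 0.231, limma adjusted p = 0.00639). H1f0, the linker histone associated to cells that have stopped dividing, had 216 and 652 reads, against 839 and 502 in wildtype, and fell (-1.48, SE 0.212, limma adjusted p = 4.99e-05). It was thus the lowest in labelled library 1, where all 5 tested clustered H1 genes were highest.

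Of 27 genes for histone mRNA processing and transcription, 14 rose and 3 fell in labelled library 1, with a median difference of 0.53. Slbp, the stem-loop binding protein, had 1430 and 824 reads in labelled libraries 1 and 2, against 891 and 588 in wildtype (0.96, SE 0.169, limma adjusted p = 0.000291). Casp8ap2, a histone locus body protein, rose as well (0.75, SE 0.155, limma adjusted p = 0.000938). Npat, the coactivator of histone gene transcription, and Hinfp, which binds the H4 element, were not called (0.29, limma adjusted p = 0.119, and 0.36, limma adjusted p = 0.335). The largest changes were those of Ncbp2, a subunit of the cap-binding complex (1.84), Cpsf2, a subunit of the cleavage complex (1.79), E2f1, a transcription factor of S phase entry (1.79), and Nfya, a subunit of the CCAAT-binding factor (1.65), each past the threshold by limma. The 3 that fell were Zcchc6 (-1.32) and Zcchc11 (-0.94), which add uridines to RNA ends, and Pou2f1 (-1.13), a factor that binds the octamer.

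Of 26 histone chaperones, 20 rose and 2 fell, with a median difference of 0.89. The largest were Asf1b, which hands H3 and H4 to other chaperones (4.08, SE 0.348, limma adjusted p = 4.04e-07), and Chaf1b and Chaf1a, subunits of the assembly factor that acts at the replication fork (3.96 and 3.90). Mms22l, a partner of Tonsl at damaged forks, followed (2.23). The 2 that fell were Ubn2 (-0.54) and Supt6 (-0.54). Of 36 S phase genes, 34 rose and 0 fell, with a median difference of 2.74. Rrm2, a subunit of ribonucleotide reductase, had 5039 and 187 reads in labelled libraries 1 and 2, against 137 and 70 in wildtype (5.36, SE 0.232, limma adjusted p = 5.14e-10). Tyms, thymidylate synthase, rose by 5.27, Gins2, a subunit of the replicative helicase, by 4.73, and Uhrf1, a factor of DNA methylation upkeep, by 4.51. Tk1 (-0.31, limma adjusted p = 0.144) and Cdt1 (0.02, limma adjusted p = 0.935) were not called. In labelled library 2, 0 genes of these 4 lists were called, with medians from -0.09 to 0.05.

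**Figure D5:**
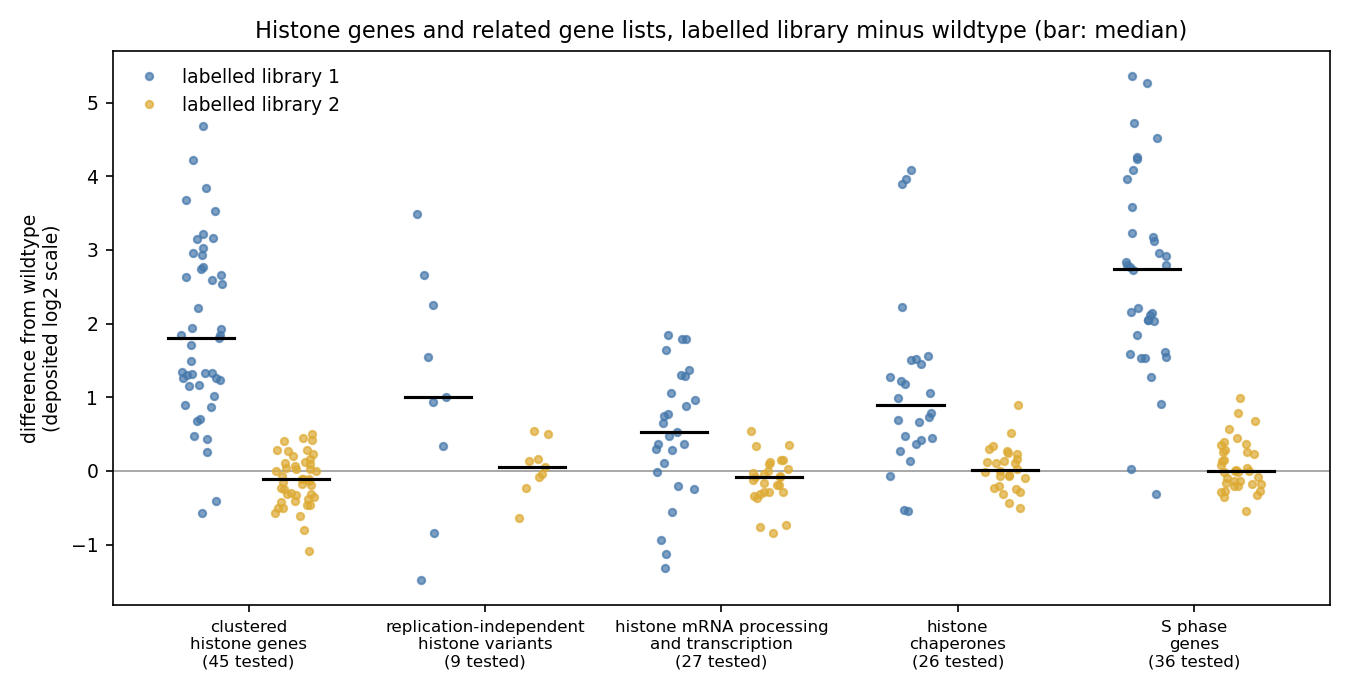
Differences from wildtype on the deposited log2 scale for the tested clustered histone genes and the 4 related lists, 1 point per gene, in labelled library 1 and labelled library 2, with the median as a bar. In labelled library 1 the medians run from 0.53 for processing and transcription genes to 2.74 for S phase genes, and in labelled library 2 they lie between -0.11 and 0.05.

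The genes outside the family whose deposited values came closest to the median profile of the tested members were Cbfb, Ran, Impdh1, Nckap5l and Ppa2. Likeness is the Euclidean distance after centring each gene over the 4 libraries, and these 5 had distances of 0.122 to 0.136. Ran, the small GTPase of nuclear transport, had 6057 and 2114 reads in labelled libraries 1 and 2, against 2364 and 1571 in wildtype. With 4 libraries, 1 of which stands apart, this is a description of that profile only.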

How the data were processed

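Total RNA of sorted B220+ cells was sequenced in 4 libraries, grouped by the genotype label, 2 per group; replicate numbers only name samples. STAR, HTSeq and DESeq2 and the build mm10 are named, without versions, in the submitters' processing notes. Wildtype library 2 has a spelling slip in its genotype, and the column header of labelled library 1 differs in 1 digit from the sample title. The deposited values are log2 values that have the form of a variance-stabilized read number per size factor, with a floor of 4.949 for genes without reads. Taking y and K as 2 raised to the value and to the floor, (y - K)²/y times a size factor (0.426 and 0.508 in labelled libraries 1 and 2, 0.502 and 0.362 in wildtype) gave whole reads within 0.01 for 100% of values. CPM, sums and folds come from these reads.

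A gene needed 10 reads, scaled to the median depth, in 2 libraries and 15 reads in all, and 12617 had them. Genes were tested by limma-trend (R 4.3.3, limma 3.58.1) on the deposited values, two-sided, with Benjamini-Hochberg adjustment over all genes tested and a threshold of 0.05, as planned for values on a log2 scale. Differences on this scale understate the change of genes with few reads. The script was tested on simulated data. Members, lists and tests were chosen with earlier results of these data known. Named by rule were the 4 members of each type with most reads, every member called in labelled library 2 or in both groups, up to 4 genes per related list with the largest called change, and Slbp, Npat, Hinfp and Casp8ap2. Other genes were named after their values were seen. All 68 symbols matched GENCODE and RefSeq. Alternatives were other scalings, filters, scales and tests, and leaving out libraries.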

Additional observations from a re-analysis of the deposited data

How the results depend on the processing

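In labelled library 1, 37 to 41 members were called under 7 of 9 alternatives. The others gave 13 of 59 tested without a filter on low reads and 13 of 14 tested with a filter of 5 CPM in 2 libraries, which leaves few members; the cause of the loss without a filter was not tested. The 38 calls were all higher, and 11 held in every alternative in which the gene was tested. Of single-gene results in this library, 338 stayed on the same side of the threshold, 31 lost their call, 4 gained one and none turned direction. In labelled library 2 the single call became 0 on log2 of normalised reads plus 0.5, with totals without Rn45s, with recomputed size factors, without a filter, with a mean of 10 reads and with a robust prior. Over both groups 0 were called in all 9 alternatives, and leaving out each library in turn gave 0 to 38. The difference in summed reads ran from -0.0195 without labelled library 1 to 1.98 without labelled library 2. Against single wildtype libraries, which allows no test, 43 of 45 members were higher in labelled library 1 each time, and 16 or 17 of 45 in labelled library 2. The share over all genes was not computed for these. Against the wildtype pair, 5717 of all 12617 genes tested were higher in labelled library 1 and 6494 in labelled library 2. The median of all genes in labelled library 1 lay at -0.15 with the deposited size factors and at 0.02 with totals without Rn45s. The edgeR and DESeq2 alternatives were not run; limma-voom on the recovered reads is the test on reads given here. No paired analysis was possible because the replicate numbers follow accession order and name no shared animal or batch. The 14 members with reads that did not pass the filter have no test, and 8 of the 9 without reads share their whole coding sequence with other genes.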
